A study of Mus musculus with 12 samples.

Results

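The genes described here mark microglia, the resident macrophages of the brain, and were measured in cultures of mouse cortical glia in which calcium handling was disturbed for 1 hour. They are Aif1, Csf1r, C1qa, C1qb, C1qc, Tyrobp, Cx3cr1, P2ry12, Trem2 and Ctss. They were taken by symbol as 10 of the 43322 genes in the deposited count table, each symbol matched a single row, and all 10 were among the 17077 genes that passed the filter on low counts. Poly-A RNA came from cortical glial cells of postnatal day 3 to 5 wild-type CD1 mice, dissected from the frontal cortices of 1 mouse per preparation. The cells were kept in medium with 10% fetal calf serum, 5% horse serum, B27 and 10 ng/ml epidermal growth factor, split at day 7 in vitro and used 3 to 7 days later. Each of the 3 groups held 4 libraries, numbered 1 to 4. Controls received vehicle, the second group received 3 µM thapsigargin for 60 min, and the third spent 60 min in medium without calcium to which the chelator EGTA had been added. Thapsigargin blocks the SERCA pump that fills the endoplasmic reticulum with calcium. The labels call the cells primary cultured astrocytes. No step that removes or adds microglia is described in them.

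Microglia depend on signalling through the receptor CSF1R for survival, and they sense their surroundings through receptors such as CX3CR1, P2RY12 and TREM2. TREM2 passes its signal through the adaptor TYROBP. The cells also make the C1q chains that start the classical complement cascade and tag synapses and debris for removal. In cultures grown for astrocytes, microglia are a common minor population.

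Library totals ran from 36191501 to 42569101 counts, so that 1 count was worth 0.0227 to 0.0277 CPM (counts-per-million, after TMM scaling). Replicate 4 of every group stood apart from the other 3. Xist, the RNA made from the inactive X chromosome of females, was at 588 to 740 CPM in the 3 libraries numbered 4 and at 0.0832 to 0.319 CPM in the other 9. In controls, the summed markers of vascular cells and fibroblasts were 522 CPM in replicate 4 against 1363 to 1446 CPM in replicates 1 to 3. The summed proliferation markers were 1923 CPM against 1466 to 1493 CPM. Deviations of same-numbered libraries from their group means correlated across genes in all 12 such pairs, with r from 0.159 to 0.836. Pairs of different number had r from -0.579 to 0.412 over 36 pairs. Without replicate 4 the same-numbered r were -0.144 to -0.00319 over 9 pairs, and the others -0.0410 to 0.118 over 18. The pairing thus rests on replicate 4 and was not seen among replicates 1 to 3. Among these, comparisons by number follow the label and not a pairing seen in the data. Each comparison was fitted again with a block for the replicate number, which takes up the difference of replicate 4, and again without replicate 4. Astrocyte markers summed to 13198 to 14106 CPM in controls, 13552 to 14333 CPM without calcium and 11848 to 12688 CPM with thapsigargin, and all 14 of them were detected. The 10 microglial genes summed to 162 ± 32.7 CPM in controls (SD, n = 4).

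The 3 genes of C1q lie side by side on chromosome 4 of GRCm39, all on the minus strand: C1qb at 136607437 to 136613511, C1qc at 136617112 to 136620242 and C1qa at 136623227 to 136626155, a span of 18719 bases. They encode the B, C and A chains of 1 protein. RefSeq promoter sequence on GRCm38.p6 was matched for 7 of the 10 genes (Aif1, C1qb, C1qc, Ctss, Cx3cr1, P2ry12 and Trem2), and the 250 bases before the start site were read. The letters GAGGAA, a short form of the site of PU.1, a transcription factor that defines the myeloid lineage, were present on either strand in 5 of these 7, against 23.3% of 32851 promoters of that length. C1qb and C1qc are shown as neighbours on the chromosome. Trem2 is shown as the member whose level in replicate 4 went the other way. Capitals mark GAGGAA or its reverse complement TTCCTC, and each sequence runs 5′ to 3′ towards the start site. The C1qb window is chr4:136886201-136886450 and the C1qc window chr4:136892915-136893164, both read on the minus strand, and the Trem2 window is chr17:48346151-48346400 on the plus strand.
C1qb: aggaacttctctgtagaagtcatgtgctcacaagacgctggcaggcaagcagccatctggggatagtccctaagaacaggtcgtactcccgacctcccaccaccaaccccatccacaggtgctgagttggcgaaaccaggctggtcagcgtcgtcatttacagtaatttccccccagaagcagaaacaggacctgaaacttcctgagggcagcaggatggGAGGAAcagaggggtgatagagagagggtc
C1qc: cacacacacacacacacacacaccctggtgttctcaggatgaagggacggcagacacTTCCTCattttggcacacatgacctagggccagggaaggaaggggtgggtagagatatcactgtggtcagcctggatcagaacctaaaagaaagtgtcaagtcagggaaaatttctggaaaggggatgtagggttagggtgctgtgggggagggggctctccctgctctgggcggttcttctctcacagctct
Trem2: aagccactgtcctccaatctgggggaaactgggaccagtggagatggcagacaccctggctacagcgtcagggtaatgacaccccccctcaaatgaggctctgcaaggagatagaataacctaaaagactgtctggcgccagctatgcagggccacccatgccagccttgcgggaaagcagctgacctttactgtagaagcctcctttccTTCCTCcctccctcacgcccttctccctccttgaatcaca
The motif sat 30 to 25 bases before the start site in C1qb, 193 to 188 bases before it in C1qc and 40 to 35 bases before it in Trem2. The longer form GAGGAAGT was found in 1 of the 7, C1qc, where it overlaps the short form, against 2.44% of all promoters. The AP-1 letters TGANTCA were found in 1, Trem2, against 6.75%, and the composite site of PU.1 and IRF factors in none, against 2.3%. TATAAA was found in 1, Ctss, against 12.4%. A match describes letters in the window and not binding.

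Compared per kilobase of exon, the 10 genes formed an upper and a lower tier in control cultures. C1qa had the highest level at 25.0 ± 6.43 CPM per kb (SD, n = 4), then Ctss at 24.2 ± 4.75, Tyrobp at 19.4 ± 3.47, C1qc at 16.5 ± 4.46 and C1qb at 13.3 ± 3.41 CPM per kb. The intervals of mean ± SD of neighbours within this tier overlapped. Within single libraries Ctss was above Tyrobp, Tyrobp above C1qc and C1qc above C1qb in 4 of 4 controls, and C1qa above Ctss in 3 of 4. Csf1r, at 7.92 ± 1.22 CPM per kb, stood apart from C1qb above it and from Cx3cr1, at 3.92 ± 0.882 CPM per kb, below it. Trem2 (2.77 ± 0.465 CPM per kb), Aif1 (2.12 ± 0.510) and P2ry12 (1.66 ± 0.245) followed, each overlapping its neighbour. Cx3cr1, Trem2, Aif1 and P2ry12 were thus at the bottom of the order, and the C1q genes, Tyrobp and Ctss at the top. With thapsigargin and in calcium-free medium Ctss came first and C1qa second. Their intervals of mean ± SD overlapped, while within single libraries Ctss was above C1qa in 4 of 4 of each treated group. The order from Tyrobp down to P2ry12 was that of controls.

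**Figure D1:**
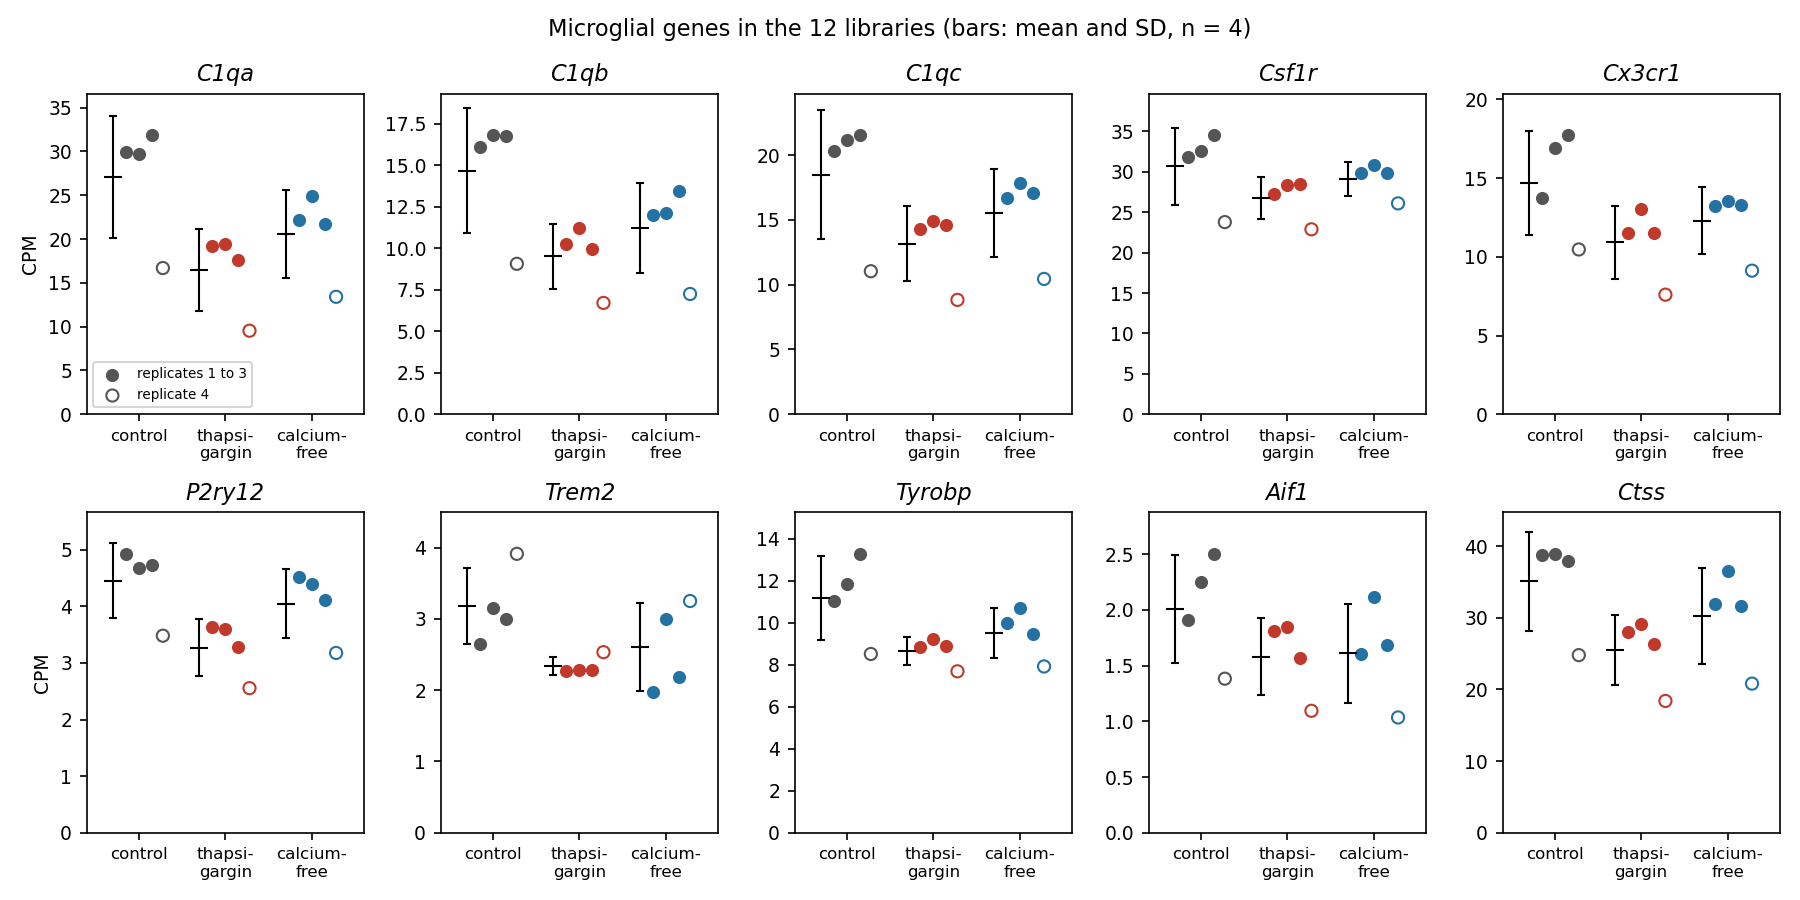
Level in CPM (vertical axis) of each of the 10 microglial genes in the 12 libraries, by group. Filled points are replicates 1 to 3, open points replicate 4, and the bar to the left of each group is the mean and SD over 4 libraries. For C1qa, control replicates 1 to 3 sit between 29.7 and 31.8 CPM and thapsigargin replicates 1 to 3 between 17.6 and 19.4 CPM, with replicate 4 below both at 16.7 and 9.54 CPM.

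The question of the thapsigargin comparison is what this blocker of the SERCA pump does to transcripts within 1 hour. All 10 microglial genes had lower means with thapsigargin than in controls, with log2 fold changes from -0.72 (C1qa) to -0.20 (Csf1r) and a median of -0.44, against a median of -0.05 over all 17077 genes. In the fit on group means, 2 of the 10 fell, P2ry12 and Tyrobp, where 14.8% of all genes were called lower (edgeR quasi-likelihood test, Benjamini-Hochberg adjusted p under 0.05). With the replicate number as a block, all 10 fell, against 28.2% of all genes. Without replicate 4, 8 of the 10 fell, all but Aif1 and Trem2, against 21.2% of all genes. None of the 10 was called higher in these 3 fits, which called 16.4%, 23.0% and 24.4% of all genes higher. Each was below the control of the same number in 4 of 4 pairs, which held for 34.4% of all genes. Among replicates 1 to 3, the thapsigargin libraries lay wholly below the controls for all 10, which held for 33.6% of all genes. In bulk RNA, fewer microglia and less of a transcript per microglial cell cannot be told apart.

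C1qa stood at 29.9, 29.7, 31.8 and 16.7 CPM in control replicates 1 to 4, and at 19.2, 19.4, 17.6 and 9.54 CPM with thapsigargin. Its ratio to the same-numbered control ran from 0.554 to 0.654, a mean decrease of 39.5%, the largest of the 10. The log2 fold change was -0.72 ± 0.26 (SE) with an adjusted p of 0.0534 on group means, and 1.04e-08 with the replicate block. The libraries overlap between the groups only through control replicate 4, which was below thapsigargin replicates 1 to 3. C1qb was 16.1, 16.8, 16.8 and 9.06 CPM in controls and 10.3, 11.2, 9.94 and 6.71 CPM with thapsigargin, with an adjusted p of 0.0596, or 2.4e-07 with the block. C1qc was 20.3, 21.1, 21.5 and 11 CPM in controls and 14.3, 15, 14.6 and 8.83 CPM with thapsigargin, with an adjusted p of 0.143, or 5.68e-07 with the block. The pattern was the same in all 3 chains, with control replicate 4 below every treated library numbered 1 to 3. The mean decreases over pairs were 34.1% for C1qb and 27.7% for C1qc. Per kilobase, C1qc amounted to 0.658 ± 0.0210 of C1qa in controls, 0.732 ± 0.0303 in calcium-free medium and 0.788 ± 0.0782 with thapsigargin (SD, n = 4), and the control libraries, at 0.638 to 0.688, did not overlap with the thapsigargin libraries, at 0.716 to 0.893. C1qb amounted to 0.533 ± 0.0164 of C1qa in controls and 0.583 ± 0.0733 with thapsigargin, with overlap.

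Among the surface receptors, Csf1r moved least and P2ry12 passed the test on group means. Csf1r, the receptor for the growth factors CSF1 and IL-34 (chromosome 18, 61238644 to 61264211, GRCm39), was 31.9, 32.6, 34.5 and 23.8 CPM in controls and 27.2, 28.3, 28.5 and 22.9 CPM with thapsigargin. The mean decrease was 12.2%, with a log2 fold change of -0.20 ± 0.11 and an adjusted p of 0.201, or 0.00217 with the block. Replicates 1 to 3 did not overlap between the groups, and the replicate 4 pair differed least, with a ratio of 0.962. Cx3cr1, the receptor for the neuronal chemokine fractalkine (chromosome 9, 119877749 to 119897362), was 13.7, 16.9, 17.7 and 10.5 CPM in controls and 11.5, 13.1, 11.5 and 7.60 CPM with thapsigargin (adjusted p of 0.122, or 2.09e-05 with the block). P2ry12, an ADP receptor that guides microglial processes (chromosome 3, 59123692 to 59170408), was 4.93, 4.67, 4.74 and 3.48 CPM in controls and 3.64, 3.60, 3.28 and 2.56 CPM with thapsigargin. All but the replicate 4 control lay above every treated library, and the log2 fold change was -0.45 ± 0.15 with an adjusted p of 0.0429, or 9e-05 with the block.

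The P2ry12 call on group means was close to the threshold. With 1 library left out at a time it passed in 4 of 12 fits, with adjusted p from 0.0119 to 0.117. The log2 fold change ran from -0.55 to -0.34 over these fits. The call was lost without any 1 of control replicates 1 to 3, thapsigargin replicates 2 to 4 or calcium-free replicates 2 and 3. P2ry12 overlaps Med12l on the opposite strand, and whether the counting used strand is not given in the sources used here, so reads of the overlapping parts may not be separable. Med12l itself was 16.2 ± 2.21 CPM in controls, 20.1 ± 2.19 CPM in calcium-free medium and 17.6 ± 1.31 CPM with thapsigargin (SD, n = 4).

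Trem2, a lipid-sensing receptor (chromosome 17, 48653429 to 48659304), was 2.65, 3.16, 2.99 and 3.91 CPM in controls and 2.27, 2.28, 2.28 and 2.53 CPM with thapsigargin. It was the only member whose 4 treated libraries all lay below all 4 controls, a separation seen in 15.1% of all genes. Its log2 fold change was -0.44 ± 0.17 with an adjusted p of 0.0634, or 0.00252 with the block, and 0.0687 without replicate 4, whose pair had the lowest ratio, 0.647. Tyrobp, the adaptor that carries the TREM2 signal (chromosome 7, 30113207 to 30117007), was 11, 11.8, 13.3 and 8.51 CPM in controls and 8.85, 9.21, 8.90 and 7.69 CPM with thapsigargin. Its libraries overlapped only through control replicate 4, and the log2 fold change was -0.36 ± 0.13 with an adjusted p of 0.0493, or 0.000311 with the block. With 1 library left out at a time, Tyrobp passed in 2 of 12 fits, those without control replicate 4 and without calcium-free replicate 4, with adjusted p from 0.00471 to 0.157. Neither P2ry12 nor Tyrobp passed on group means with DESeq2's size factors (adjusted p of 0.0549 and 0.0625) or without the filter on low counts. Nor did either pass with only the 2 groups compared (0.0566 and 0.0698) or with the trend with exon length removed. With that trend removed, the log2 fold change was -0.43 for P2ry12 and -0.19 for Tyrobp. In the blocked fit with the trend removed, these were -0.43 and -0.18.

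Ctss, the lysosomal protease cathepsin S (chromosome 3, 95434097 to 95463716), was at 806 to 1565 counts per library, the highest count any member reached in a single library. It was 38.8, 38.9, 37.9 and 24.8 CPM in controls and 28.1, 29.1, 26.3 and 18.4 CPM with thapsigargin, a mean decrease of 27.3% with ratios from 0.695 to 0.749. The 4 ratios lay close together although replicate 4 was well below the others in both groups. The adjusted p was 0.0949 on group means and 6.61e-08 with the block. Aif1, the actin-binding protein IBA1 used to stain microglia (chromosome 17, 35389967 to 35394977), was the least counted, at 43 to 92 counts per library. It was 1.91, 2.25, 2.50 and 1.38 CPM in controls and 1.81, 1.85, 1.57 and 1.10 CPM with thapsigargin. Aif1 had the weakest evidence of the 10, with an adjusted p of 0.322 on group means, 0.0273 with the block and 0.0967 without replicate 4. It was also the 1 member not called when the trend with exon length was removed in the blocked fit, where 26.4% of all genes were called lower.

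**Figure D2:**
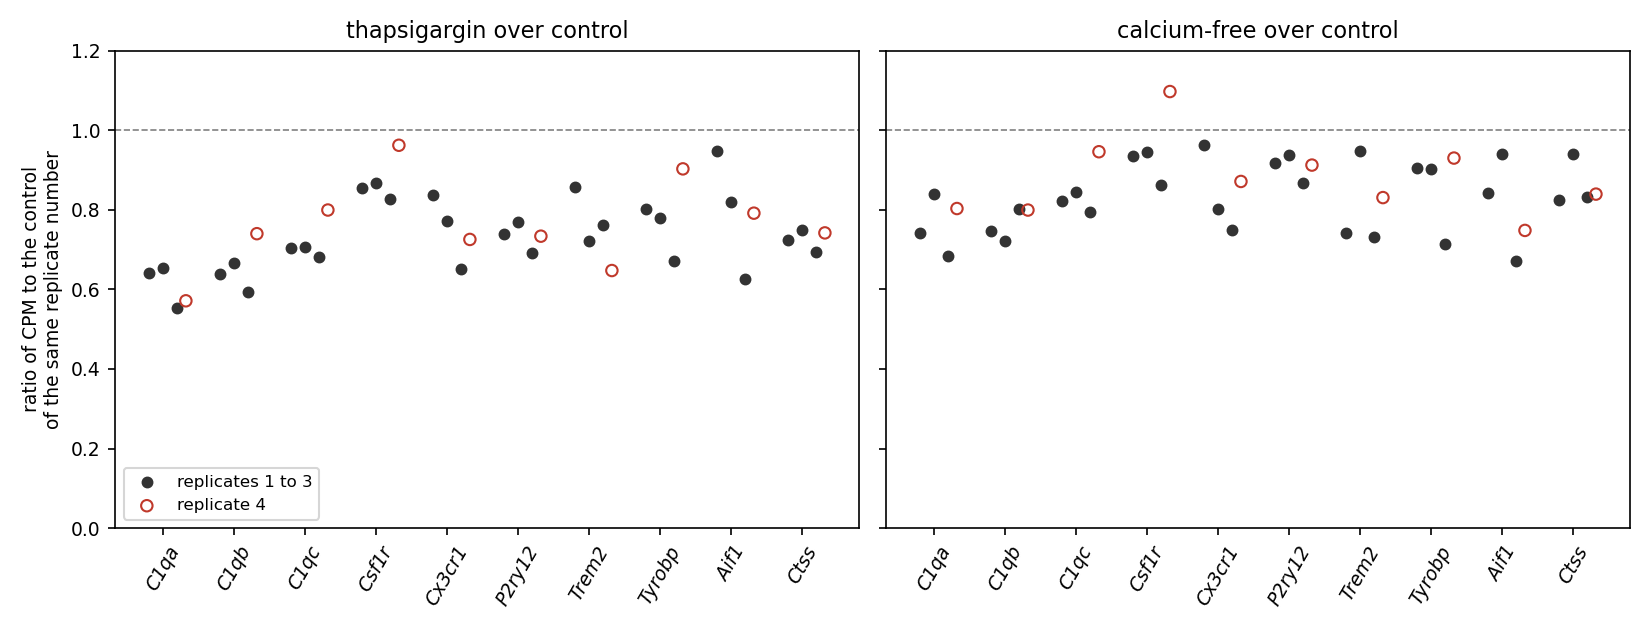
Ratio of CPM to the control library of the same replicate number (vertical axis, starting at 0) for the 10 genes, with thapsigargin on the left and calcium-free medium on the right. Filled points are replicates 1 to 3 and open points replicate 4. All 40 thapsigargin ratios lie below 1, from 0.554 to 0.962, and 1 calcium-free ratio, that of Csf1r in replicate 4, lies above 1 at 1.10.

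The calcium-free comparison asks what medium without calcium and with EGTA does over the same 60 min. Here too the 10 genes had lower means than in controls, with log2 fold changes from -0.39 (C1qa and C1qb) to -0.08 (Csf1r) and a median of -0.26, against -0.01 over all genes. On group means none of the 10 passed the edgeR test, where 1.55% of all genes were called lower. The count was also 0 at an unadjusted p under 0.05 and with DESeq2, and the adjusted p-values ran from 0.414 to 0.859. The 95% intervals of single genes (normal approximation) reached down to -0.90 and up to 0.21 on the log2 scale. With the replicate block, 6 of the 10 fell, against 7.01% of all genes: C1qa, C1qb, C1qc, Cx3cr1, Tyrobp and Ctss. Without replicate 4, 6 fell, against 5.16%.

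Replicates 1 to 3 lay wholly below their controls for 8 of the 10 genes, which held for 15.1% of all genes. C1qa was 22.2, 24.9, 21.8 and 13.4 CPM in calcium-free medium, C1qb 12, 12.1, 13.5 and 7.25 CPM, and C1qc 16.7, 17.9, 17.1 and 10.4 CPM. The adjusted p-values were 0.515, 0.449 and 0.705 on group means, and 9.9e-05, 0.000289 and 0.00317 with the block. For the C1q chains these values lay between control and thapsigargin in every replicate number. Ctss was 32, 36.5, 31.6 and 20.8 CPM (adjusted p of 0.69, or 0.00121 with the block), and Cx3cr1 was 13.2, 13.6, 13.3 and 9.12 CPM (0.603, or 0.00986 with the block). Tyrobp was 9.98, 10.7, 9.48 and 7.92 CPM, with an adjusted p of 0.414, or 0.0328 with the block. The mean decreases of these 6 genes over the 4 pairs ran from 13.7% (Tyrobp) to 23.3% (C1qa and C1qb).

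The other 4 genes passed in neither fit. Csf1r was 29.8, 30.8, 29.8 and 26.1 CPM, below its control in 3 of 4 pairs, with an adjusted p of 0.376 with the block. P2ry12 was 4.52, 4.39, 4.11 and 3.18 CPM, a mean decrease of 9.09% (0.233 with the block). The 2 least counted receptors and markers had wider scatter, with Trem2 at 1.97, 2.99, 2.19 and 3.25 CPM (0.0757 with the block) and Aif1 at 1.61, 2.12, 1.68 and 1.04 CPM (0.0931 with the block). Their mean decreases were 18.7% and 19.9%, above the 13.7% of Tyrobp, which was called with the block. Trem2 and Aif1 were the members whose replicates 1 to 3 overlapped with controls.

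The treated groups were also compared with each other, since both are read against the same controls. All 10 genes had lower means with thapsigargin than in calcium-free medium, with a median log2 fold change of -0.20, against -0.02 over all genes. No member passed on group means with edgeR (13.2% of all genes were called lower), none had an unadjusted p under 0.05, and none passed with DESeq2. With the replicate block, 7 of the 10 were lower with thapsigargin, against 26.9% of all genes. Those were C1qa (log2 difference -0.33 ± 0.06, adjusted p of 0.0001), Ctss (-0.24 ± 0.04, 0.000122), C1qc (-0.24 ± 0.05, 0.00106), P2ry12 (-0.31 ± 0.08, 0.003), C1qb (-0.23 ± 0.06, 0.00589), Cx3cr1 (-0.18 ± 0.06, 0.0313) and Csf1r (-0.13 ± 0.05, 0.0334). Without replicate 4, 5 of these 7 were called, Csf1r and Cx3cr1 being lost, against 19.4% of all genes. Tyrobp, Trem2 and Aif1 were not called, with block intervals that reached from -0.27, -0.37 and -0.28 up to 0.01, 0.07 and 0.23. For Aif1 the log2 difference was -0.03 and turned positive, at most 0.13, under 5 alternative settings.

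**Figure D3:**
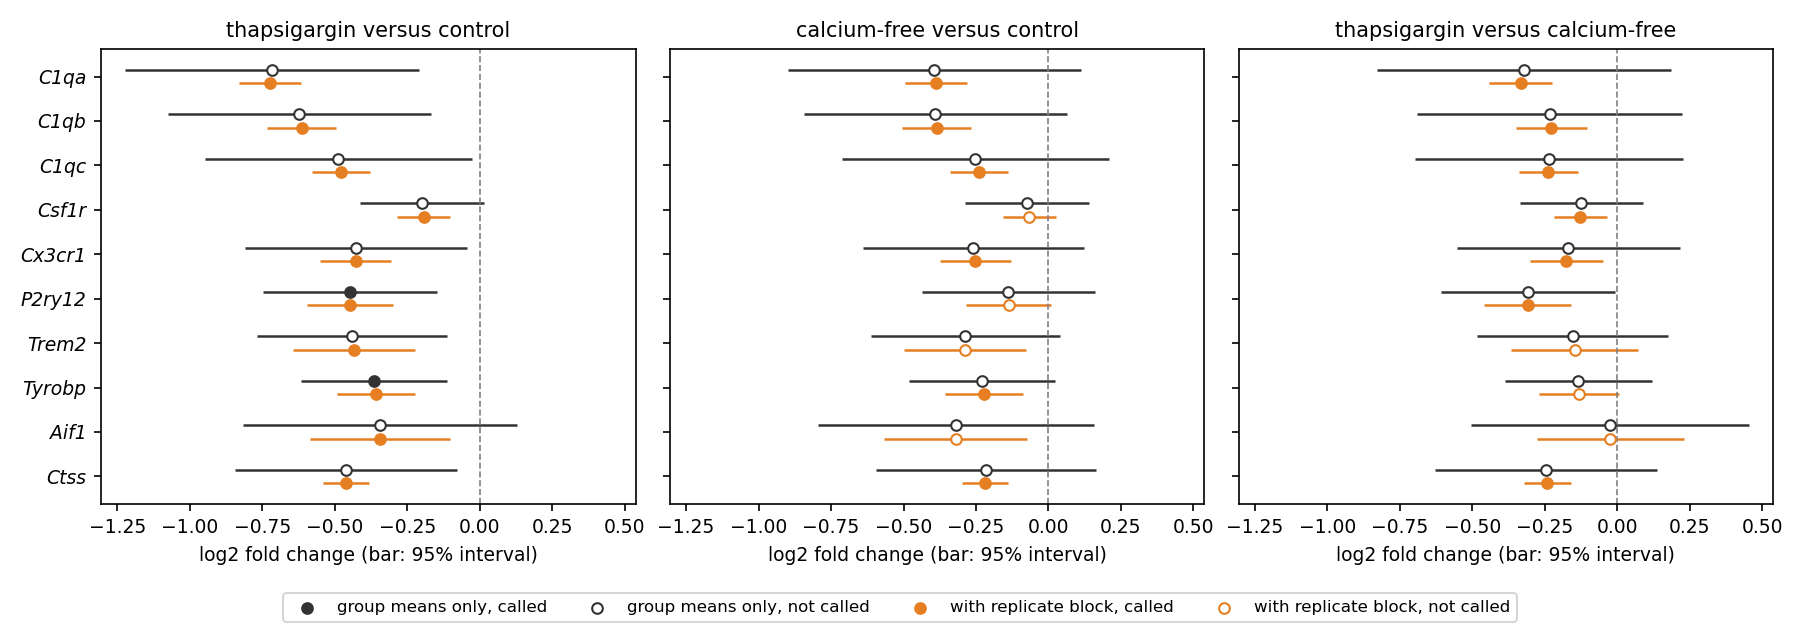
Log2 fold change (horizontal axis, with 95% intervals as bars) of the 10 genes in the 3 comparisons, from the fit on group means (black) and with the replicate block (orange). Filled points were called at an adjusted p under 0.05 and open points were not. The estimates of both fits nearly coincide, and the bars of C1qa against control with thapsigargin shrink from an SE of 0.26 to 0.05 with the block.

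Summed over the 10 genes, the level was 171, 178, 184 and 113 CPM in control replicates 1 to 4, 127, 133, 125 and 87.8 CPM with thapsigargin, and 144, 156, 144 and 103 CPM in calcium-free medium. The sum was lower than in the same-numbered control by a mean of 26.4% with thapsigargin and 14.7% in calcium-free medium. Per 100 CPM of astrocyte markers the sum was 1.21, 1.26, 1.33 and 0.857 in controls, 1.00, 1.12, 1.05 and 0.740 with thapsigargin, and 1.06, 1.13, 1.01 and 0.75 in calcium-free medium. The astrocyte sum was itself lower with thapsigargin. On group means 4 of its 14 genes fell and 1 rose, where 14.8% of all genes were called lower and 16.4% higher. The ratio was lower in every treated library than in the control of its number, and the part of the astrocyte genes in the microglial difference was not tested. Markers of border macrophages and monocytes, myeloid cells that share many genes with microglia, were also summed. The 11 markers summed to 17.4 to 28.3 CPM in controls, 14.5 to 27.1 CPM without calcium and 10.6 to 17.9 CPM with thapsigargin, with means of 24.6 ± 4.88, 22.2 ± 5.47 and 15.7 ± 3.45 CPM in that order (SD, n = 4). With thapsigargin 3 of the 6 markers tested fell on group means with edgeR, against 14.8% of all genes, and DESeq2 also called 3. With the block 3 fell, against 28.2%, and without replicate 4, 1 fell, against 21.2%. The 3 called by edgeR, named after their values were seen, were Stab1, from 17.8 ± 3.18 to 10.3 ± 1.68 CPM, F13a1, from 1.45 ± 0.188 to 0.976 ± 0.180 CPM, and Ms4a7, from 0.616 ± 0.0691 to 0.344 ± 0.109 CPM. Stab1 alone thus made up most of the sum of these markers, 17.8 of 24.6 CPM in controls and 10.3 of 15.7 CPM with thapsigargin. Mrc1, Pf4 and Cbr2, also tested, were not called in either direction on group means. In calcium-free medium none of the 6 was called by edgeR or DESeq2, and none had an unadjusted p under 0.05. The other 5 of the 11 (Cd163, Lyve1, Ccr2, Ly6c2 and Plac8) had fewer than 10 counts in every library. The part of these cells in the differences of the members was not tested.

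Replicate 4 was below the mean of replicates 1 to 3 for 9 of the 10 genes in every group. The ratios for these 9 ran from 0.526 to 0.729 in controls, 0.574 to 0.866 without calcium and 0.508 to 0.855 with thapsigargin. Trem2 was the exception in each group, at 1.33, 1.36 and 1.11 times the mean of the others in that order. Trem2 relative to Tyrobp, per kilobase, was 0.230 in control replicate 4 against 0.113 to 0.134 in control replicates 1 to 3, and 0.206 against 0.0990 to 0.141 in calcium-free medium. Replicate 4 also differed in Xist and in the fibroblast and proliferation markers given above, whose part in this was not tested. The Poisson value is the spread that counting alone gives. Among replicates 1 to 3, the coefficient of variation was under it in 15 of 30 combinations of gene and group. Its median was 4.02% in controls against a Poisson median of 3.97%. The medians were 5.10% against 4.53% with thapsigargin and 6.22% against 4.54% in calcium-free medium. Some single genes were well above counting, such as Ctss (8.26% against 2.83%) and Trem2 (22.6% against 10.6%) in calcium-free medium. With replicate 4 the control median was 21.1%. The labels do not say which mouse each replicate came from, so separate preparations and dishes of 1 preparation cannot be told apart for replicates 1 to 3. If they were dishes, the n of 4, the p-values with the block and the calls without replicate 4 would describe the spread between dishes. The spread edgeR fitted on group means, the biological coefficient of variation, was 0.255 for C1qa against a trend of 0.109 for genes of its level, 0.228 against 0.127 for C1qb and 0.232 against 0.116 for C1qc, while for P2ry12 (0.147 against 0.179) and Tyrobp (0.130 against 0.136) it was below the trend.

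Because replicate 4 forms a cluster of its own, correlations between members are given over the other 9 libraries, which still share the differences between groups. Over these, the 45 pairs of members had Pearson r of log2 CPM from 0.520 to 0.982 with a median of 0.889. The 3 pairs of C1q chains ranged from 0.951 to 0.982. Taken as deviations from group means the median r of the 45 pairs was 0.509, and the C1q pairs ran from 0.0239 to 0.594.

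Of the genes outside the 10, those whose pattern over the 12 libraries was most like the mean of the members were ranked among 13153 genes by Pearson r. Fcer1g, the signalling chain of Fc receptors, came first at 0.991 (0.979 without replicate 4), and others among the first 10 were Rhoq at 0.978, Selplg at 0.973, Ralgds at 0.968, Tssc4 at 0.967, Adam15 at 0.966, Ppdpf at 0.964, and Itgb2 and Ifi30 at 0.963. Without replicate 4 these others had r from 0.910 (Tssc4) to 0.957 (Ppdpf). The ranking used all 12 libraries, so it includes the difference of replicate 4. Fcer1g, Selplg and Itgb2 were on a wider list of microglial genes, which held 34 of the genes ranked and 8 of the first 100. The level of Fcer1g was 8.34 ± 2.06 CPM in controls, 6.46 ± 1.36 CPM in calcium-free medium and 5.46 ± 1.29 CPM with thapsigargin (SD, n = 4). Rhoq, a small GTPase, was far more abundant, at 344 ± 35.1, 311 ± 32.4 and 285 ± 32 CPM in that order.

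The wider list covered 38 further genes of microglia and myeloid cells, of which 36 were tested. With thapsigargin 6 fell and 5 rose on group means, where 31.2% of all genes were called in either direction. With the block 17 fell and 8 rose, against 28.2% of all genes lower and 23.0% higher. Without replicate 4, 14 fell and 8 rose, against 21.2% and 24.4%. The median log2 fold change was -0.20. Lyz2, the bacteria-lysing enzyme lysozyme of macrophages, fell from 111 ± 8.05 to 71.1 ± 9.32 CPM (log2 fold change -0.65 ± 0.09, adjusted p of 0.000198). Hpgds, a prostaglandin D synthase, fell from 1.95 ± 0.205 to 1.10 ± 0.139 CPM (-0.83 ± 0.14, 0.000821). Against this direction, Irf8, a transcription factor that microglia need to develop, rose from 2.21 ± 0.208 to 3.38 ± 0.315 CPM (0.61 ± 0.10, 0.000555). Chosen after their values were seen, the Fc receptor genes Fcgr3 and Fcgr1 fell most, from 3.66 ± 0.609 to 1.24 ± 0.406 CPM and from 2.46 ± 0.897 to 0.901 ± 0.299 CPM. The regulator Ikzf1 (0.67 ± 0.17) rose beside Irf8, and Spi1, which encodes PU.1, had a log2 fold change of -0.24 ± 0.17 that did not pass. Siglech had fewer than 10 counts in every library.

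On a list of activation genes, 7 of the 15 tested rose and 1 fell with thapsigargin, where 16.4% of all genes were called higher and 14.8% lower. With the block 8 rose and 5 fell, against 23.0% and 28.2%, and without replicate 4, 8 rose and 4 fell, against 24.4% and 21.2%. The median log2 fold change of the list was 0.46. The chemokine Ccl3 rose from 1.5 ± 0.326 to 3.64 ± 0.523 CPM (log2 fold change 1.28 ± 0.18, adjusted p of 0.000167). The chemokine Ccl4 rose from 0.862 ± 0.294 to 2.32 ± 0.214 CPM (1.43 ± 0.27, 0.0015). Cd9, a tetraspanin that astrocytes also make, fell from 384 ± 17.9 to 295 ± 11.7 CPM. All 6 inflammatory mediators tested rose, and the other 4, named after their values were seen, were Il1b (1.96 ± 0.45), Il1a (1.96 ± 0.54), Nlrp3 (0.92 ± 0.26) and Tnf (0.88 ± 0.26). Il1b went from 0.626 ± 0.324 to 2.44 ± 0.638 CPM. Itgax and Nos2 had fewer than 10 counts in every library.

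In calcium-free medium the same lists moved little on group means. On the wider list 2 genes rose and none fell (4 and 7 with the block, 3 and 7 without replicate 4), where 5.33% of all genes were called, 646 of them higher and 265 lower, or 524 and 372 with upper quartile scaling. The block called 10.4% of all genes higher and 7.01% lower, and the fit without replicate 4 called 10.5% and 5.16%. Irf8 rose to 2.96 ± 0.0859 CPM (0.42 ± 0.10, adjusted p of 0.0326). Cd83, a surface protein of activated myeloid cells, rose to 3.40 ± 0.779 CPM (0.72 ± 0.18, 0.0376). On the activation list none rose and 2 fell (2 and 2 with the block, 2 and 4 without replicate 4). Ccl3 fell to 0.536 ± 0.110 CPM (-1.49 ± 0.21, 0.00166), and Ch25h, which makes 25-hydroxycholesterol, fell to 2.38 ± 0.302 CPM (-0.79 ± 0.20, 0.0445). Ccl3 thus fell in calcium-free medium and rose with thapsigargin, and the test between the treated groups gave a log2 difference of 2.76 ± 0.20 (adjusted p of 4.47e-06). That difference was 1.62 ± 0.20 for Ch25h (0.000138) and 2.13 ± 0.29 for Ccl4 (0.000217).

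**Figure D4:**
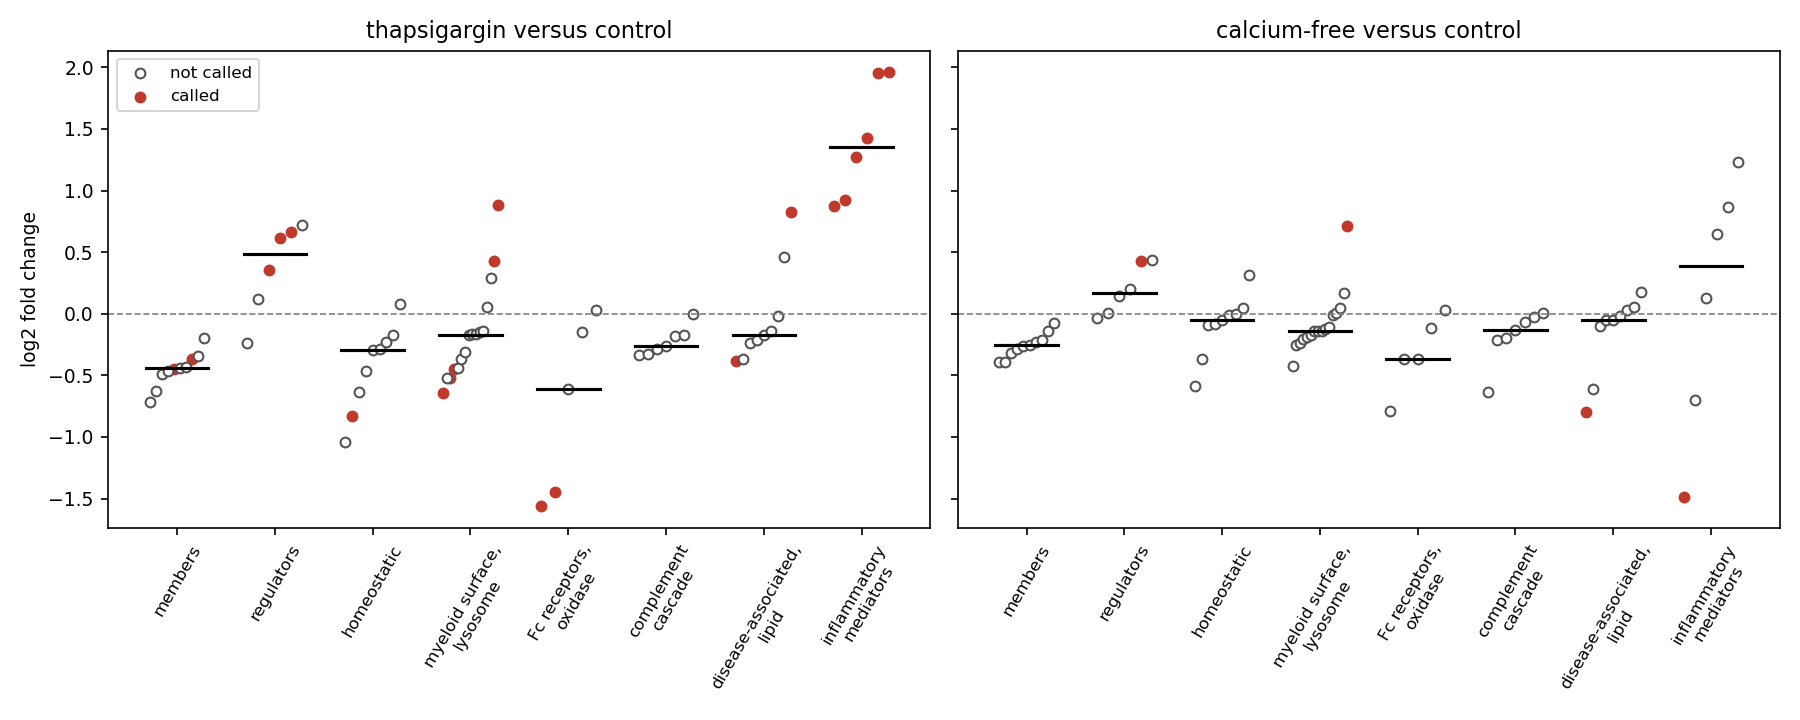
Log2 fold change (vertical axis) of the 10 members and of 7 groups of other microglial, complement and activation genes against control, for thapsigargin on the left and calcium-free medium on the right. Each point is a gene, red where it passed on group means, and the black line is the median of the group. With thapsigargin the members lie between -0.72 and -0.20, and all 6 inflammatory mediators lie above 0.

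Ligands and effectors of the member receptors made up a list of 13 genes, of which 4 fell and none rose with thapsigargin, where 14.8% of all genes were called lower. With the block 7 fell and 1 rose, against 28.2% of all genes lower, and without replicate 4, 6 fell and 1 rose, against 21.2%. Adam10 and Adam17, proteases that shed TREM2 and other receptors from the surface, fell from 259 ± 6.71 to 208 ± 2.80 CPM (-0.31 ± 0.04, adjusted p of 3.59e-05) and from 122 ± 6.21 to 102 ± 1.61 CPM (-0.26 ± 0.04, 0.00038). Apoe, a lipid carrier that binds TREM2 and is abundant in astrocytes, fell from 954 ± 148 to 726 ± 101 CPM (-0.39 ± 0.13, 0.0327). In calcium-free medium none of the 13 passed with edgeR or DESeq2, and 1 had an unadjusted p under 0.05. With the block 1 rose, against 10.4% of all genes. Csf1, a ligand of the Csf1r product, was 302 ± 24.7 CPM in controls, 362 ± 34.7 CPM without calcium and 267 ± 27.2 CPM with thapsigargin, and the treated groups differed by -0.44 ± 0.09 (adjusted p of 0.00312). Levels of these genes are not specific to microglia.

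Of the 12 further complement genes, none passed with thapsigargin on group means by edgeR or DESeq2, and none had an unadjusted p under 0.05. With the block 7 fell, against 28.2% of all genes, and without replicate 4, 4 of 11 fell, against 21.2%. In calcium-free medium none passed or had an unadjusted p under 0.05 with either tool, and 1 fell with the block, against 7.01% of all genes. C3, the central component of the cascade, stood at 40.4 ± 10.5 CPM in controls, 40.6 ± 12.2 CPM without calcium and 40.4 ± 11.3 CPM with thapsigargin. Cd55, an inhibitor of complement, was lower with thapsigargin than in calcium-free medium (-0.65 ± 0.20, 0.031). Of the 9 genes of cathepsins and antigen presentation, 2 fell with thapsigargin and none rose, where 14.8% of all genes were called lower. With the block 8 fell, against 28.2% of all genes, and without replicate 4, 5 fell, against 21.2%. The 2 called on group means were Ctsl, from 359 ± 23.6 to 298 ± 18.5 CPM (-0.27 ± 0.06, adjusted p of 0.00403), and Ctsz, from 150 ± 6.59 to 131 ± 3.38 CPM (-0.19 ± 0.05, 0.00699). None of the 9 passed, or had an unadjusted p under 0.05, with either tool in calcium-free medium.

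The 4 lymphocyte markers were at or near the detection limit, summing to at most 0.119 CPM. Ms4a1, a B cell marker, had 0 counts in all 12 libraries, which allows up to 0.0683 to 0.0832 CPM (3 counts per library, for counting error only).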

How the data were processed

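The 12 libraries were poly-A RNA of cultured glia, prepared with a kit that marks strand, per the labels' protocols. The authors deposited 1 table of raw expected counts per gene, with 14.2% to 15.9% of the 43322 values per library not whole. Per the submitters' processing notes, reads were handled with featureCounts 1.6.4, STAR 2.7.2b, cutadapt 1.17 and bcl2fastq 2.20.0.422, and the build was GRCm39. How strand and multi-mapping reads were set is not given in the sources used here.

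Counts were rounded and tested over all genes with edgeR 4.0.16 (R 4.3.3): TMM scaling, at least 10 counts by filterByExpr, group means over 12 libraries, robust quasi-likelihood test, Benjamini-Hochberg adjustment over 17077 genes, threshold 0.05. CPM are deposited counts over TMM-scaled library totals, and CPM per kb divides by the table's exon length. Same-numbered libraries paired by the correlation of their deviations (0.159 to 0.836 over 12 pairs), while without replicate 4 these were -0.144 to -0.00319 over 9 pairs, so the pairing rests on replicate 4. The labels do not say that a number marks a shared mouse. They call the replicates biological without naming animals or preparations, so p-values measure the spread between these libraries, which may be technical for replicates 1 to 3. Alternatives were DESeq2 1.42.0, other scalings and filters, the block, exon length and left-out libraries. The code was tested on simulated data.

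The members, lists and tests were chosen with earlier results of these data known. Named genes are the members, in each list and comparison the 3 called genes of smallest p, genes under 10 counts in every library, and the 10 genes of most similar pattern. Gene positions are from the table's build, GRCm39, and promoters from RefSeq on GRCm38.p6. Promoter sequences of C1qa, Csf1r and Tyrobp were not used here. Results of some genes these rules select are not reported here.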

Additional observations from a re-analysis of the deposited data

Results flagged for a closer look

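Of 33 groups of 4 libraries checked (the 10 genes and their sum in 3 groups), 8 had a single library whose gap to the others was large for the range of the group, and all 8 were replicate 4. For a single group of independent values, chance flags about 1 in 20. The 33 groups share the same libraries and their genes move together, so the 8 flags are not separate results and cannot be set against that rate. Replicate 4 was far below the other 3 in controls for C1qa (16.7 CPM), C1qb (9.06 CPM), C1qc (11 CPM) and Ctss (24.8 CPM). It was far below them for C1qc with thapsigargin (8.83 CPM) and in calcium-free medium (10.4 CPM), and for Cx3cr1 in calcium-free medium (9.12 CPM). For Trem2 with thapsigargin it was far above them (2.53 CPM against 2.27 to 2.28 CPM).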

How the results depend on the processing

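The number of microglial genes called moved with the treatment of replicates, the scaling and the filter. Sizes moved too: with the exon length trend removed, Tyrobp with thapsigargin against control went from -0.36 to -0.19 on group means. The lowest log2 fold change among the members went from -0.72 to -0.58. The direction of the members moved little: over the alternatives run, the log2 difference changed sign for 1 gene in 1 comparison. That was Aif1 with thapsigargin against calcium-free medium (-0.03), which became 0.0095 without the filter on low counts, 0.072 with the exon length trend removed and 0.074 with the replicate block and length together. It became 0.11 without thapsigargin replicate 4 and 0.13 without calcium-free replicate 2, in a range of -0.18 to 0.13 over the 12 fits with 1 library left out, and the cause was not tested.

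For thapsigargin against control, members called lower numbered 2, and 0 with DESeq2's size factors, 0 without the filter on low counts, 0 with the length trend removed, 1 with only the 2 groups compared, 4 with upper quartile factors and 4 with DESeq2. The 1 called with only the 2 groups compared was neither P2ry12 nor Tyrobp (edgeR adjusted p of 0.0566 and 0.0698). In the same comparison, ligands and effectors called went from 4 to 2 without the filter, to 2 with only the 2 groups compared and to 2 with the length trend removed, which also left 1 gene of cathepsins and antigen presentation in place of 2. For calcium-free medium, genes called on the wider microglial list went from 2 to 1 with upper quartile factors, 1 without the filter and 0 with only the 2 groups compared. Activation genes went from 2 to 1 with only the 2 groups compared and to 1 with the length trend removed. All genes called went from 911 to 1486 with DESeq2 and to 500 with only the 2 groups compared.

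With the replicate block, thapsigargin against control called 10 members lower, 25 genes of the wider list (11 without it), 8 ligands and effectors, 7 complement genes, 8 of cathepsins and antigen presentation, 13 activation genes and 8737 of all genes (5331 without it). For calcium-free medium the block gave 6 members, 11 of the wider list, 1 ligand or effector, 1 complement gene, 4 activation genes and 2968 of all genes. Between the treated groups it gave 7 members and 8428 of all genes (4757 without it). With the block and the length trend removed these counts were 9, 24, 9, 6, 5, 13 and 8225 for thapsigargin, 5, 12, 1, 1, 4 and 2901 for calcium-free medium, and 6 and 8220 between them.

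Without replicate 4 of every group, thapsigargin called 8 members lower, 22 of the wider list, 7 ligands and effectors, 4 complement genes and 5 of cathepsins and antigen presentation. For calcium-free medium there were 6, 10 of the wider list, 1 ligand or effector, 6 activation genes and 2659 of all genes, and between the treated groups 5 members. The block without replicate 4, chosen after seeing the data, gave 8, 22, 7, 3, 6 and, for activation genes, 13 with thapsigargin. It gave 6, 7, 1 and 2228 of all genes for calcium-free medium, and 5 members between the treated groups.

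With 1 library left out at a time, members called lower with thapsigargin ranged from 0 to 8, with 8 without control replicate 4, 5 without calcium-free replicate 4, 1 without thapsigargin replicate 1 and 2 without calcium-free replicate 1, and 0 without each of the others. They stayed at 0 in the other 2 comparisons. The range with thapsigargin was 8 to 17 for the wider list, 2 to 5 for ligands and effectors, 0 to 2 for complement, 2 to 5 for cathepsins and antigen presentation, 7 to 8 for activation genes and 4336 to 5750 for all genes. In calcium-free medium it was 0 to 3 for the wider list, 1 to 2 for activation genes and 372 to 1449 for all genes, and between the treated groups 3616 to 5199 for all genes. Depth limits Aif1 and Trem2 most: at their mean counts in replicates 1 to 3, counting alone gives a coefficient of variation of 9.37% to 12.2%. The order of levels without division by length was not run, since levels of different genes are compared per length only.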
